A study of Homo sapiens with 18 samples.

Results

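The guanylate-binding proteins GBP1 to GBP5 are encoded by 5 neighbouring genes on chromosome 1, and these were taken from the deposited RNA count table by symbol, 5 of its 55766 entries. The family was chosen because GBP5 RNA was lower in both silenced groups, so the values of GBP5 against untreated cells are a description and carry no test. Of the 5 genes, GBP2, GBP4 and GBP5 passed the filter on low counts that 13786 genes passed, and GBP1 and GBP3 did not. All libraries came from K562, an established human erythroleukaemia line, here carrying a B2M:tdTomato transgene. B2M encodes beta-2 microglobulin, the invariant subunit of MHC class I, and tdTomato is a fluorescent reporter. The study silenced this gene with DNA methylation directed to its promoter by TALE proteins or by dCas9, both programmable DNA binders, and profiled RNA and methylated DNA in both kinds of silenced cells and in untreated cells. Each assay, RNA-seq and MeDIP-seq (sequencing of fragments captured by an antibody to 5-methylcytosine), had 3 untreated, 3 TALE silenced and 3 dCas9 silenced libraries.

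Treated cells had received 3 plasmids at a 1:1 molar ratio, each encoding a different repressor that the labels call an ATR, with 1 ug of the D3A-based one. The dCas9 cells also had 250 ng of a plasmid encoding the sgRNA. All groups shared the transgene and the passage every 3 days. The time from treatment to collection, any sorting, and whether a group was 1 clone or several cultures are not given in the sources used here, so p-values measure the spread between these libraries, which may be technical.

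Guanylate-binding proteins are large GTPases of the dynamin superfamily whose genes are switched on by interferon gamma. They assemble on pathogen vacuoles and on bacteria in the cytosol and take part in cell-autonomous defence and in inflammasome activation. GBP1 carries a farnesyl lipid and GBP2 and GBP5 a geranylgeranyl lipid at the C terminus, which anchor them in membranes. No interferon treatment is named in the labels.

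In GRCh37 the 5 genes lie on the minus strand of chromosome 1 in the order GBP3 (chr1:89472362-89488577), GBP1 (chr1:89517565-89531043), GBP2 (chr1:89571815-89616139), GBP4 (chr1:89646827-89664625) and GBP5 (chr1:89721872-89738543). GBP7 (chr1:89597425-89641692) lies between GBP2 and GBP4 and overlaps the annotated span of GBP2 on the same strand. GBP6 (chr1:89829618-89853719) and the transcribed pseudogene GBP1P1 (chr1:89873238-89891802) follow on the plus strand. The paralogs share sequence, so counts can fall on more than one of them. Of the 50-base stretches in the annotated transcripts, 8.82% of those of GBP2 also occur in another GBP entry, mostly GBP7. The share is 7.76% for GBP1, mostly with GBP1P1, and 4.41% for GBP3, mostly with GBP1. It is 0.308% for GBP4, and for GBP5 it is 0 of 11190 stretches. By this measure, which covers other GBP entries only, counts of GBP1, GBP2 and GBP3 are more open to sharing than those of GBP4 and GBP5. Transcript stretches repeated elsewhere in the genome were not counted. GBP4 and GBP5 also hold repeated sequence. Of the stretches in a MeDIP region inside exon 11 of GBP4, 78.3% occur more than once in GRCh37. In a region inside exon 1 of GBP5 the share is 58.1%.

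Promoter windows of 300 bases (250 before the start and 50 after, RefSeq, GRCh38.p14) were held for GBP1, GBP3 and GBP4, and those of GBP2 and GBP5 were not used here. Of the motifs of interferon signalling searched on both strands, 1 is given here, the core of the element that interferon regulatory factors bind, 2 copies of GAAA with any 2 bases between them. It was found once in each of the 3 windows and in 3.57% of 35116 promoter windows of the same length. The stretches are printed to show these letters next to the genes whose levels follow, on the minus strand from 5′ to 3′, with the match in capitals. The 3 matches read as its reverse complement. In GBP1 the match spans bases -127 to -118 from the start, in GBP4 bases -4 to 6, and in GBP3 bases 3 to 12.
GBP1, chr1:89065316-89065345: aacgaagtacTTTCAGTTTCatattactct
GBP3, chr1:89022845-89022874: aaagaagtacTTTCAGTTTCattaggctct
GBP4, chr1:89198927-89198956: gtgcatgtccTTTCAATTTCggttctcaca
A match is a description of letters and not of a bound site. The windows held few CpG dinucleotides, the sites of DNA methylation: 3 in GBP1, 0 in GBP3 and 3 in GBP4, against a median of 14 over all windows.

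Total counts ran from 8460076 to 12050554 per RNA library, and MeDIP counts in the deposited regions from 2529729 to 4492751. The targeted gene matched the labels: B2M had 48 to 79 counts in untreated libraries, 3 to 7 in TALE and 2 or 3 in dCas9 libraries. The fetal globin gene HBG1, a marker of this line, ran from 913 to 1127 CPM (counts scaled to library size) in untreated, 686 to 1309 in TALE and 651 to 1214 in dCas9 libraries. Other markers of the line did separate groups: TFRC, the transferrin receptor, was at 627 to 753 CPM in dCas9 libraries, below the 778 to 897 of untreated ones, and KLF1, an erythroid factor, at 72.3 to 75.0 in TALE libraries, above 61.4 to 70.7. Their part in the results was not tested. Of the markers of other cell types, CD3E, CD14, CSF1R and MS4A1 stayed under 1 CPM in every library. CD3D, LYZ, EPCAM and KRT8 were detected in every library of each group at overlapping levels, CD3D for example at 22.7 to 24.1 CPM in untreated, 14.8 to 25.0 in TALE and 21.2 to 29.6 in dCas9 libraries. The fibroblast markers COL1A1 and COL1A2 summed to 4.82 to 10.1 CPM in untreated, 6.67 to 10.0 in TALE and 6.21 to 6.83 in dCas9 libraries. In these bulk libraries, fewer cells with a transcript and less transcript per cell cannot be told apart.

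GBP5, which promotes assembly of the NLRP3 inflammasome, had the most counts in the family. Untreated replicates 1, 2 and 3 held 150, 160 and 173 counts, or 13.1, 19.8 and 20.9 CPM. TALE replicates held 47, 81 and 96 counts (4.61, 6.24 and 8.89 CPM) and dCas9 replicates 77, 65 and 71 counts (7.14, 6.73 and 7.04 CPM). Every silenced library lay below every untreated one, and the dCas9 libraries were the closest together. The means were 17.9 ± 4.23 CPM in untreated, 6.58 ± 2.16 in TALE and 6.97 ± 0.212 in dCas9 libraries (SD, n = 3 each), so that TALE stood at 36.7% and dCas9 at 38.9% of untreated. The fitted log2 fold changes were -1.43 (SE 0.221) for TALE and -1.35 (SE 0.222) for dCas9. The 2 platforms were also compared directly, a contrast that the choice of the family did not use. The fitted log2 difference of TALE from dCas9 was -0.08 (SE 0.235, edgeR quasi-likelihood adjusted p = 0.973), and the groups overlapped.

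GBP4, a member without a lipid anchor that has been described as a brake on interferon signalling, had the next most counts. Untreated replicates held 135, 74 and 117 counts (11.8, 9.14 and 14.2 CPM). TALE replicates held 68, 59 and 75 counts (6.66, 4.55 and 6.95 CPM) and dCas9 replicates 75, 54 and 80 counts (6.95, 5.59 and 7.93 CPM). As for GBP5, no silenced library reached the lowest untreated one. Mean CPM was 11.7 ± 2.51 in untreated, 6.05 ± 1.31 in TALE and 6.82 ± 1.18 in dCas9 libraries (SD, n = 3 each), which put the silenced groups at 51.8% and 58.4% of untreated. For TALE against untreated the fitted log2 fold change was -0.96 (SE 0.216), with an unadjusted p of 0.00032 and an edgeR adjusted p of 0.294 over all genes. For dCas9 against untreated it was -0.78 (SE 0.215), with an unadjusted p of 0.00205 and an edgeR adjusted p of 0.376. GBP4 thus did not pass the adjusted threshold of 0.05 in either comparison. With no filter on low counts the edgeR adjusted p for TALE was 0.00650, past the threshold. That setting called 74 of 41469 genes for TALE against untreated, where the fit with the filter called 3 of 13786. Over all alternatives tried, the adjusted p of GBP4 lay between 0.00650 and 1.00 for TALE and between 0.0646 and 1.00 for dCas9. Its fitted values for TALE and dCas9 differed by -0.18 (SE 0.224, edgeR adjusted p = 0.914).

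Among the members tested other than GBP5, 0 of 2 passed the adjusted threshold against untreated cells, where 0.0218% of all genes tested passed for TALE and 0.029% for dCas9. Between TALE and dCas9, 0 of the 3 members tested passed by edgeR, as did 0.0% of all genes. Groups that did not overlap, with the silenced group lower, were seen for 6.44% of all genes for TALE and for 5.97% for dCas9, so the separation of GBP4 is a pattern it shared with 888 genes in the first comparison and 823 in the second, GBP5 and itself included. The 2 comparisons used the same untreated libraries, and the values of 1 comparison are no independent check of the other.

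**Figure D1:**
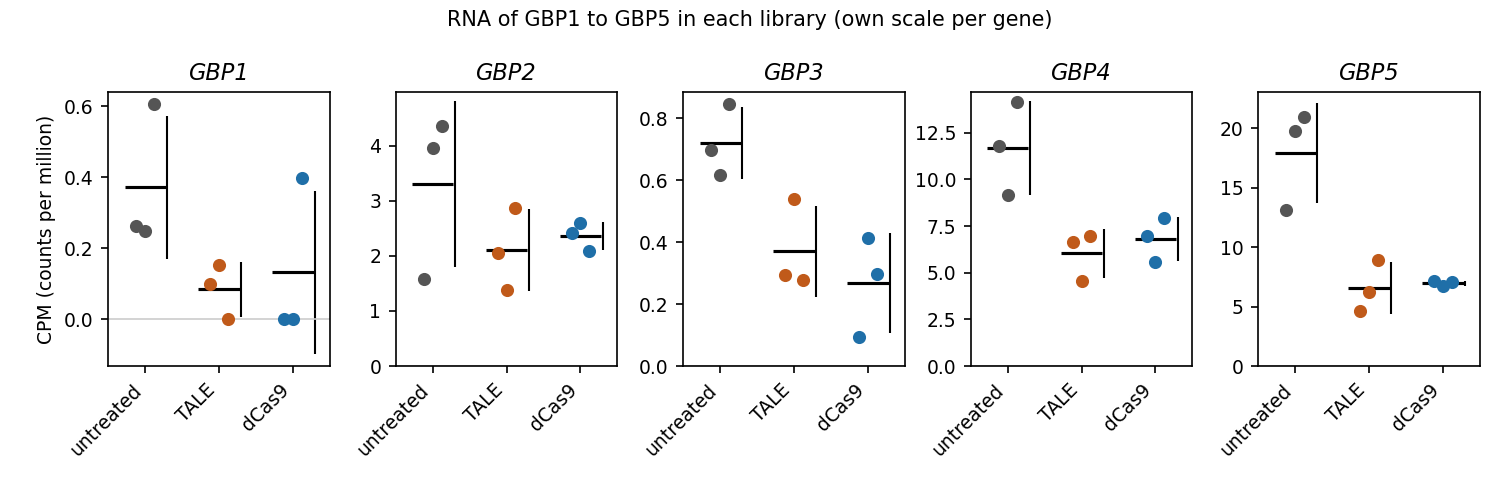
RNA of GBP1 to GBP5 in each library, in CPM (y axis, own scale for each gene), by group (x axis). Points are libraries, horizontal bars group means and vertical lines ± 1 SD (n = 3). All silenced libraries lie below the untreated ones for GBP3, GBP4 and GBP5, and the groups overlap for GBP2. GBP1 rests on 0 to 5 counts per library and GBP3 on 1 to 8, and neither was tested.

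GBP2, a geranylgeranylated member that acts with GBP1 on bacterial surfaces, had the third most counts. Its untreated replicates held 18, 32 and 36 counts (1.57, 3.95 and 4.36 CPM), TALE replicates 21, 18 and 31 (2.06, 1.39 and 2.87 CPM) and dCas9 replicates 26, 25 and 21 (2.41, 2.59 and 2.08 CPM). The first untreated library lay inside the range of the TALE libraries and below all dCas9 libraries, so both silenced groups overlapped untreated. TALE gave a fitted log2 fold change of -0.62 with an SE of 0.374 (edgeR adjusted p = 0.770). dCas9 gave -0.44 with an SE of 0.373 (edgeR adjusted p = 0.965). Without that first untreated library the values were -0.99 and -0.81, and without the third they were -0.35 and -0.18. TALE and dCas9 differed by -0.18 (SE 0.382, edgeR adjusted p = 0.955).

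GBP1, the founding member that coats cytosolic bacteria, and GBP3, its close paralog, had too few counts to be tested. GBP1 had 3, 2 and 5 counts in untreated, 1, 2 and 0 in TALE and 0, 0 and 4 in dCas9 replicates. The ratio of summed counts, scaled to library size, was 0.246 for TALE against untreated (exact 95% interval 0.0434 to 0.954) and 0.364 for dCas9 (0.0834 to 1.26). GBP3 had 8, 5 and 7 counts in untreated, 3, 7 and 3 in TALE and 1, 4 and 3 in dCas9 replicates, with ratios of 0.532 (0.243 to 1.12) and 0.364 (0.139 to 0.864). Mean GBP3 was 0.721 ± 0.116 CPM in untreated, 0.370 ± 0.147 in TALE and 0.268 ± 0.163 in dCas9 libraries (SD, n = 3). Both silenced groups were below all untreated libraries for GBP3, and only TALE was for GBP1. Among genes tested, 6.44% for TALE and 5.97% for dCas9 separated this way, but these shares do not cover genes this scarce. The exact intervals cover counting error only, not the spread between libraries. Reads without molecular identifiers are not independent molecules, and the intervals are then too narrow.

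The other GBP entries were as scarce. GBP1P1 had 23 counts over the untreated, 13 over the TALE and 14 over the dCas9 libraries, GBP7 had 7, 2 and 4, and GBP6 had 7, 7 and 4. The ratio of GBP1P1 was 0.463 (exact 95% interval 0.215 to 0.952) for TALE and 0.554 (0.264 to 1.12) for dCas9. Both silenced groups overlapped untreated for GBP1P1, and 9 of its 13 TALE counts came from the third replicate. All 7 counts of GBP6 in untreated cells came from the third replicate. GBP1P1, GBP6 and GBP7 were too scarce to be tested. For GBP7 the TALE libraries (0 to 0.0926 CPM) lay below the untreated ones (0.175 to 0.371), at a ratio of 0.234 (0.0237 to 1.23). Its dCas9 libraries overlapped untreated, and so did both silenced groups for GBP6.

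Levels of different genes were compared as CPM per kb of merged exons. In untreated cells GBP4 (1.90 ± 0.408 CPM per kb) and GBP5 (1.64 ± 0.386) were highest and overlapped. GBP2 (0.456 ± 0.208), GBP3 (0.168 ± 0.0271) and GBP1 (0.0608 ± 0.0332; SD, n = 3 each) followed, and none of these overlapped its neighbour in the order. The order of the means was the same in the silenced groups, with GBP4 at 0.986 and GBP5 at 0.600 CPM per kb in TALE and at 1.11 and 0.636 in dCas9 libraries. GBP4 and GBP5 overlapped in TALE and not in dCas9 libraries, and GBP3 and GBP1 overlapped in dCas9 libraries. The place of GBP5 depends on the length used: per kb of its longest transcript it was at 2.63 in untreated cells, above GBP4 at 1.90, with overlap.

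**Figure D2:**
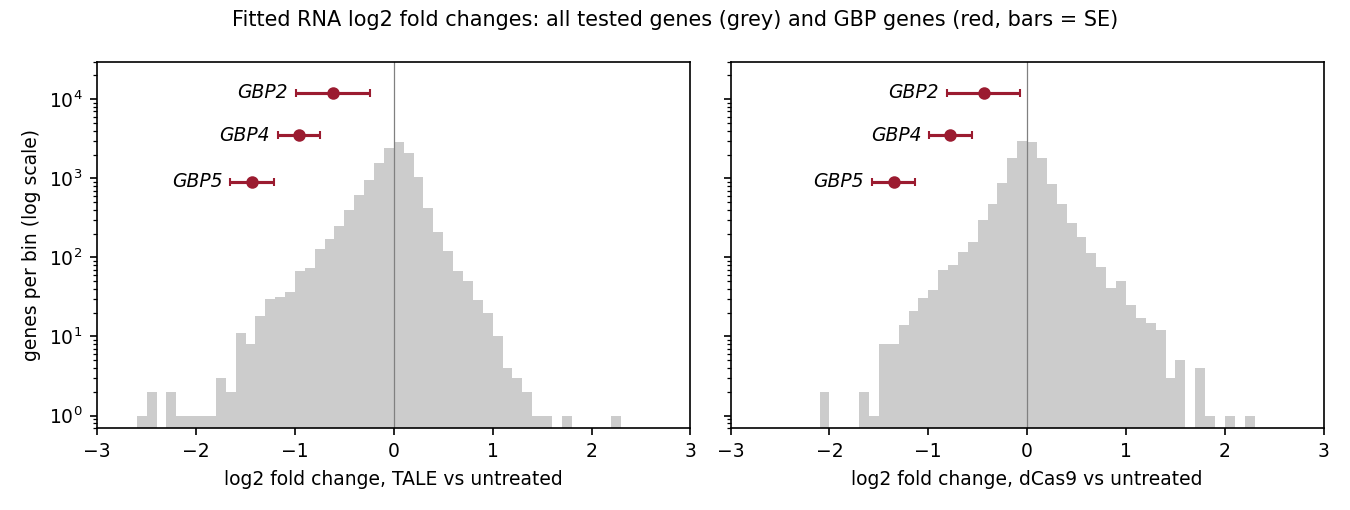
Fitted log2 fold changes of RNA for TALE (left) and dCas9 (right) against untreated. Grey bars count all 13786 genes tested per bin (log y axis), and red points with SE bars mark GBP2, GBP4 and GBP5, whose height is arbitrary. The 3 genes lie left of 0 in both panels, GBP5 farthest at -1.43 and -1.35. GBP5 was chosen for this and is shown as a description.

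The genes whose RNA followed GBP5 most closely over the 9 libraries were C8orf22, NUDT13, an RNA entry known only by a clone name, CD47 and ST8SIA6-AS1, of 13785 genes compared. Pearson's r of log2(CPM + 0.5) was 0.976, 0.956, 0.954, 0.952 and 0.951 in that order. With group means removed, r was 0.858, 0.763, 0.795, 0.857 and 0.943. The genes were picked by r over the same 9 libraries, which includes variation inside the groups. Their values with group means removed are therefore no separate support. CD47, the receptor for SIRPA that keeps macrophages from engulfing a cell, is the best known of them. B2M_tomato, the entry of the transgene, ranked 15 (r = 0.937) and B2M ranked 37 (r = 0.907). Among the family, GBP4 ranked 187 with r = 0.807, which was 0.106 with group means removed. GBP2 ranked 770 with r = 0.667, which was 0.730 with group means removed. GBP4 thus shared the difference between groups with GBP5 and little of its variation within them, while for GBP2 the value within groups was the higher one. All these values share the 9 libraries and the choice of GBP5, and they are descriptions.

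The pathway that controls the family was read from lists of genes, and no gene of any list passed the adjusted threshold in any comparison by edgeR. Of 21 tested regulators (among them interferon receptors, IRF and NF-kB genes; 24 listed), 1 was higher and 1 lower at an unadjusted p under 0.05 for TALE, and 0 and 2 for dCas9. The median log2 fold change was -0.02 in both, against 0.00 over all genes tested. Over all genes, 4.29% were lower and 2.86% higher at that p for TALE, and 2.83% and 3.1% for dCas9. IFNGR1, the ligand-binding chain of the interferon gamma receptor, was at 46.0 ± 4.62 CPM in untreated, 33.5 ± 8.06 in TALE and 35.6 ± 7.29 in dCas9 libraries (SD, n = 3). Its log2 fold changes were -0.45 (edgeR adjusted p = 0.585) and -0.37 (edgeR adjusted p = 0.831). The other chain, IFNGR2, was at -0.06 and 0.04. IRF1, which acts on GBP promoters, was at -0.13 and -0.33 with only 5.54 ± 0.915 CPM in untreated cells. The remaining regulators with an unadjusted p under 0.05, named here after their values were seen, were NFKB1 for TALE (0.38) and IRF7 for dCas9 (-1.01).

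Of 14 tested interferon gamma targets outside the family (21 listed), 3 were lower and 0 higher at an unadjusted p under 0.05 in each comparison. Over all genes tested, 4.29% were lower at that p for TALE and 2.83% for dCas9. The lower targets were the immunoproteasome subunits PSMB8 and PSMB9 in both, UBE2L6, a conjugating enzyme for ISG15, for TALE, and TAP1, a peptide transporter of antigen presentation, for dCas9, all named after their values were seen. PSMB8 had a log2 fold change of -0.73 (edgeR adjusted p = 0.585) for TALE and of -1.09 (edgeR adjusted p = 0.299) for dCas9, and PSMB9 of -0.72 (edgeR adjusted p = 0.607) and -0.83 (edgeR adjusted p = 0.595). The list medians were -0.10 and -0.06.

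Prenylation enzymes, which attach the lipid anchors, showed 0 of 8 with an unadjusted p under 0.05 in either comparison, with medians of 0.09 and -0.05. The shares over all genes at that p were 4.29% lower and 2.86% higher for TALE, and 2.83% and 3.1% for dCas9. FNTA, the shared alpha subunit, had log2 fold changes of -0.19 for TALE and -0.15 for dCas9. FNTB of the farnesyltransferase was at 0.22 and 0.25, and PGGT1B, the beta subunit of the enzyme that adds geranylgeranyl, at 0.07 and -0.07. Of 5 tested inflammasome and pyroptosis genes (14 listed), 1 was lower at that p in each comparison, NEK7 for TALE (-0.31) and the adaptor PYCARD for dCas9 (-0.55), both named after their values were seen. NLRP3, AIM2, CASP1 and CASP4 had too few counts to be tested. Other interferon-inducible GTPases and their relatives showed 0 of 5 tested genes, and MX1 and MX2, the interferon-induced dynamin-like proteins, were too scarce to be tested, at 12 and 19 counts over the untreated libraries. Of 14 tested neighbours of the cluster on 1p22, 1 (HFM1) was lower for TALE and 1 (LRRC8C) higher for dCas9 at that p, with medians of -0.06 and 0.03.

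The family was chosen on RNA, and the MeDIP counts are a measure the choice did not use. Of 198884 deposited regions, 11 overlapped a gene of the family or lay within 5 kb of one: 1 by GBP3, 2 by GBP1, 2 by GBP2, 1 by GBP4 and 5 by GBP5. Summed over the 11 regions, CPM was 30.1, 26.7 and 30.2 in untreated replicates 1, 2 and 3, 13.9, 18.4 and 17.6 in TALE, and 15.4, 20.8 and 22.9 in dCas9 replicates. No silenced library reached the lowest untreated one. The means were 29.0 ± 1.97, 16.6 ± 2.44 and 19.7 ± 3.85 (SD, n = 3 each), or 57.3% of untreated for TALE and 67.8% for dCas9. In the 180 other regions within 1 Mb of the cluster on either side, summed CPM was 765 ± 10.6 in untreated, 736 ± 14.7 in TALE and 765 ± 19.1 in dCas9 libraries, or 96.1% and 100% of untreated. In those surroundings TALE libraries (721 to 750) also lay below untreated ones (758 to 778), by far less than at the cluster, and dCas9 libraries overlapped them. The sum rests on 30 to 98 counts per library, and no test was made of it. Every region of the table lies under a peak of at least 1 library, and 3 of the 11 have peaks in untreated libraries only. Without these 3, a choice made after seeing the data, the sum over the other 8 was 20.2 ± 2.75 CPM in untreated, 13.8 ± 2.10 in TALE and 15.9 ± 3.59 in dCas9 libraries (SD, n = 3), or 68.1% and 78.9% of untreated. TALE (16.1 at most) then still lay below untreated (18.2 to 23.3), and dCas9 (11.9 to 18.6) overlapped it.

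**Figure D3:**
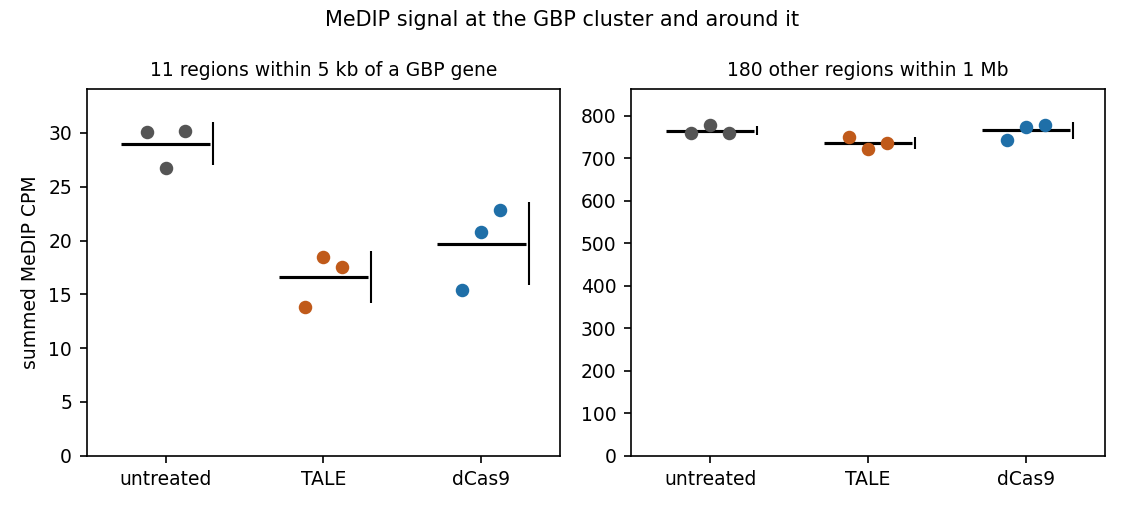
Summed MeDIP CPM (y axis) over the 11 regions within 5 kb of GBP1 to GBP5 (left) and over 180 other regions within 1 Mb (right), by group. Points are libraries, horizontal bars means and vertical lines ± 1 SD (n = 3). At the cluster the silenced libraries lie at 13.9 to 22.9, below the untreated ones at 26.7 to 30.2, and around it all libraries lie between 721 and 778.

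Region by region, mean CPM was lower than in untreated cells in 9 of 11 regions for TALE and in 8 of 11 for dCas9, where 50.7% and 50.2% of all regions with counts were lower. Groups did not overlap, with the silenced one lower, in 3 of 11 regions for TALE and 1 of 11 for dCas9, against 5.16% and 5.04% of all regions. At an unadjusted p under 0.05 without the filter on low counts, there were 2 of 11 and 1 of 11, against 4.63% and 4.64%. No region of the cluster passed the adjusted threshold by edgeR, which 0 regions of 105652 passed for TALE (0.0%) and 1 for dCas9 (0.000947%). The median fitted log2 fold change was -0.75 for TALE and -0.56 for dCas9, against 0.00 over all regions in both. Between TALE and dCas9 the median was -0.23, and TALE had the lower mean in 7 of 11 regions, against 50.4% of all regions. The groups did not overlap in 0 of 11, against 5.06% with TALE lower over all regions, and 1 of 11 had an unadjusted p under 0.05, against 4.33%. None passed the adjusted threshold by edgeR, as 1 of all regions tested did (0.000947%).

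The region with the lowest p, chr1:89568907-89569187, lay 2628 bases past the 3′ end of GBP2, outside its exons and introns. It held 11, 11 and 20 counts in untreated (3.38, 4.67 and 6.23 CPM), 4, 0 and 6 in TALE (1.85, 0 and 1.65 CPM) and 4, 5 and 6 in dCas9 replicates (1.58, 1.30 and 2.59 CPM). It was the 1 region whose untreated libraries stood above all silenced libraries. The log2 fold change without the filter was -1.97 (SE 0.635) for TALE, with an unadjusted p of 0.00319, and -1.40 (SE 0.596) for dCas9, with an unadjusted p of 0.0226, and edgeR's adjusted p was 1.00 for both. The authors' deposited peak lists had a peak there in all 3 untreated libraries, with fold enrichments of 4.40, 1.33 and 1.83 for replicates 1, 2 and 3, and in 0 silenced libraries. The authors' −log10 q of these peaks was 6.81, 0.484 and 1.14 in that order, so the peaks of replicates 2 and 3 were weak. Of the region's 50-base stretches, 78.0% occur more than once in GRCh37, the most frequent one 7900 times, so reads there are hard to place. How reads with several matches were treated is not given in the sources used here, and its part in the result was not tested.

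The other region by GBP2, chr1:89592759-89593078, was the 1 region of the 11 that passed the filter. Its centre lay at -1121 bases from the start of the canonical transcript, inside the wider annotated span of the gene but outside all annotated exons. It held 22, 13 and 15 counts in untreated, 4, 13 and 9 in TALE and 10, 19 and 4 in dCas9 replicates. In CPM that was 6.76, 5.52 and 4.67, then 1.85, 5.10 and 2.47, then 3.95, 4.93 and 1.73, so both silenced groups overlapped untreated. TALE gave a log2 fold change of -0.84 with an SE of 0.476, and dCas9 one of -0.62 with an SE of 0.461, both at an edgeR adjusted p of 1.00. Only 15.5% of its 50-base stretches recur in the genome. Over the 11 regions the median was 3.13 CpG sites per 100 bases, close to the 2.75 of the regions of chromosome 1.

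At GBP4 the region chr1:89648117-89648465 lay in the last exon of the gene, exon 11, within the 3′ untranslated region. It held 15, 8 and 18 counts in untreated, 5, 4 and 9 in TALE and 6, 13 and 8 in dCas9 replicates. Mean CPM was 4.54 ± 1.11, 2.12 ± 0.481 and 3.07 ± 0.604 (SD, n = 3), and TALE lay below all untreated libraries while dCas9 overlapped them. The log2 fold change for TALE was -1.09 (SE 0.509) with an unadjusted p of 0.0379, and 78.3% of the region's stretches recur in the genome.

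Of the 5 regions around GBP5, 1 lay in its first exon. This region (chr1:89738211-89738507, in the 5′ untranslated region, centred 184 bases past the start) held 5, 8 and 7 counts in untreated, 0, 3 and 4 in TALE and 4, 4 and 2 in dCas9 replicates. TALE did not overlap untreated there and dCas9 did, with log2 fold changes of -1.47 (SE 0.856) and -0.98 (SE 0.816) and unadjusted p-values of 0.0920 and 0.238. The nearest region upstream, chr1:89739706-89739924, had 8, 6 and 5 counts in untreated, 4, 11 and 3 in TALE and 3, 7 and 2 in dCas9 replicates, and its groups overlapped. Its mean CPM was 2.19 in untreated, 2.33 in TALE and 1.29 in dCas9 libraries. The other 3 regions also overlapped between groups. Their log2 fold changes for TALE and dCas9 were 0.49 and 0.51 at chr1:89719539-89719649, -0.75 and -1.10 at chr1:89721422-89721772, and -0.36 and 0.15 at chr1:89731128-89731414. Summed over the 5 GBP5 regions, CPM was 9.16 ± 0.324 in untreated, 6.91 ± 0.923 in TALE and 6.76 ± 1.42 in dCas9 libraries (SD, n = 3), with no overlap between untreated and either silenced group. This lower sum came from 2 regions with peaks in untreated libraries only, the one in exon 1 and chr1:89721422-89721772. Over the 3 other regions it was 5.10 ± 1.05, 5.21 ± 0.975 and 4.83 ± 1.45 CPM (SD, n = 3), and the groups overlapped.

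The regions nearest the starts of GBP3 (chr1:89489650-89489948) and GBP1 (chr1:89532953-89533187) were centred at -1250 and -2179 bases from those starts. At GBP3 the counts were 7, 5 and 2 in untreated, 0, 0 and 4 in TALE and 2, 6 and 9 in dCas9 replicates, and at GBP1 they were 3, 2 and 7, then 0, 6 and 4, then 3, 2 and 3. Silenced and untreated libraries overlapped in both. TALE and dCas9 had a log2 difference of -2.08 (SE 1.01, unadjusted p = 0.0443 by edgeR without the filter) at the GBP3 region, with overlapping groups and an adjusted p of 1.00.

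**Figure D4:**
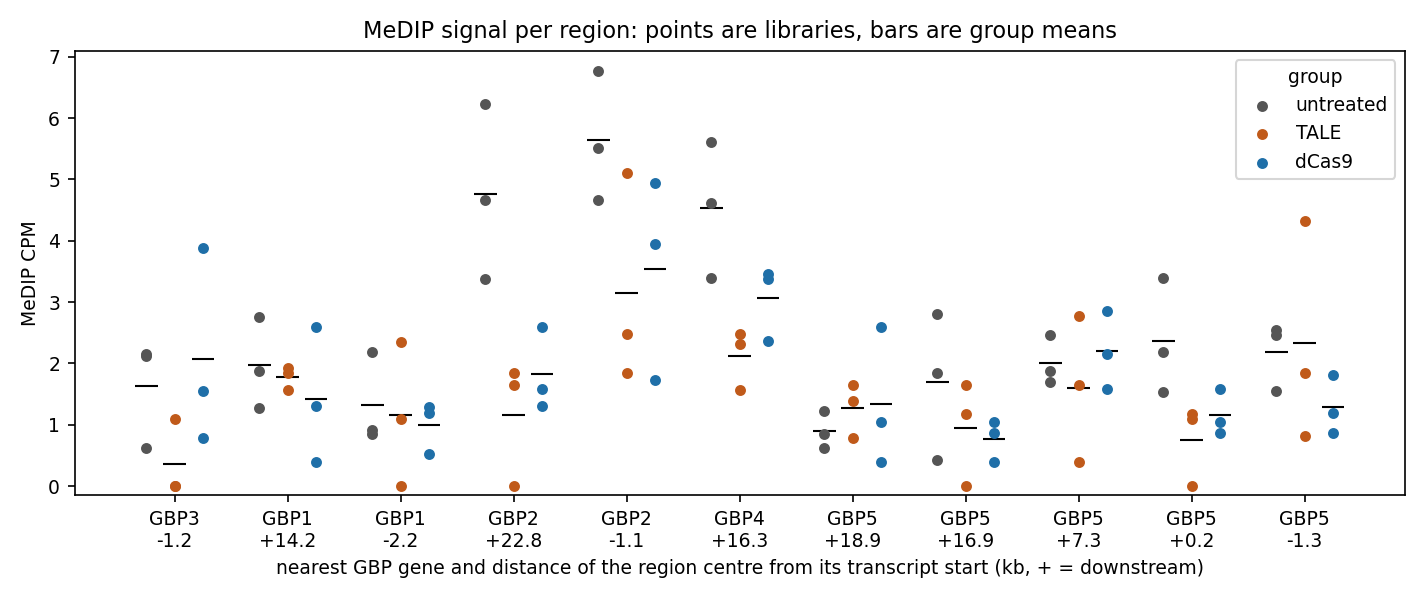
MeDIP CPM (y axis) of each of the 11 regions in every library, ordered along the chromosome and labelled by nearest gene and distance of the region centre from its transcript start in kb (x axis). Points are libraries coloured by group and bars are group means. The 3 regions with the highest untreated means, 2 by GBP2 and 1 by GBP4, have lower means in both silenced groups, and most other regions overlap. Picking regions by a high untreated mean by itself favours lower means in the other groups.

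Of the 11 regions, 4 consist for more than 50% of stretches that recur in the genome, and these include all 3 regions in which TALE lay below all untreated libraries. In the surroundings 31 of 176 regions were of that kind. Without those 4 regions, a choice made after seeing the data, the summed CPM was 16.0 ± 3.15 in untreated, 11.4 ± 1.83 in TALE and 12.6 ± 3.42 in dCas9 libraries (SD, n = 3), or 71.3% and 78.8% of untreated. TALE (9.70 to 13.3) then still lay below untreated (14.0 to 19.7), and dCas9 (8.69 to 14.7) overlapped it.

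The authors' peak calls, made per library, gave the same order. Peaks that overlapped a gene of the family or lay within 5 kb of one numbered 7, 4 and 6 in untreated, 1, 3 and 4 in TALE and 2, 4 and 3 in dCas9 replicates. Only the second untreated library, with 4 peaks, met the silenced range. With a −log10 q of at least 3 there were 3, 0 and 2 peaks, then 0, 0 and 1, then 0, 1 and 0. In each group the deepest library had the most peaks, but the shallowest dCas9 library (2722898 counts) had 3 and the next (2955337 counts) 2. The part of depth in the difference between groups was not tested. In the lists the strongest peak of the cluster was 1 of the first untreated library upstream of GBP5 (chr1:89739638-89739924), with the authors' fold enrichment of 6.35, and the second TALE library had a peak of 2.20 there. The other 2 untreated, 2 TALE and all 3 dCas9 libraries had none. Counts in the region there did not follow the fold enrichments. They gave 2.46 CPM in the first untreated library, 4.32 in the second TALE library and 2.55 in the second untreated library, which had no peak. The remaining libraries ran from 0.824 to 1.85 CPM.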

How the data were processed

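RNA-seq and MeDIP-seq of K562 cells were analysed from deposited tables, with groups and replicate numbers taken from the sample titles. The authors deposited raw counts per gene symbol and raw counts per region, both read as whole numbers per the file headers, and a broad peak list per MeDIP library. In these lists the authors' deposited values are a fold (ratio) over background, a −log10 p and a −log10 q for each peak. Reads were processed with STAR 2.3.0 for RNA and with BWA 0.7.5, Picard, MACS2 and bedtools for MeDIP, on hg19, per the submitters' processing notes, which give no role or order. The counter, the annotation, the use of strand and the treatment of reads with several matches are not given in the sources used here. Total RNA was amplified before sequencing and MeDIP libraries were pooled before capture, per the labels' protocols.

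Each count table was fitted whole with edgeR 4.0.16 (quasi-likelihood test, TMM factors, 1 model of group means over 9 libraries, filterByExpr with a minimum of 10 counts) in R 4.3.3, which left 13786 genes and 105652 regions. Calls needed a Benjamini-Hochberg adjusted p under 0.05, and log2 fold changes had a prior count of 0.125. CPM used TMM-scaled library sizes. Regions under the filter were read from a fit without it. The fits were tested on simulated data. Gene models came from GENCODE on GRCh37, and file starts were read as 0-based and printed 1-based. Repeated stretches of 50 bases were counted on both strands of GRCh37. Alternatives were DESeq2 1.42.0, RLE factors, other filters, a replicate block and leaving out each library.

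The members and all gene lists were chosen with earlier results of these data known. Named are all GBP entries, the B2M entries, fixed regulators and prenylation enzymes, list genes past the adjusted threshold (there were none), the 5 genes most correlated with GBP5, and the MeDIP regions with the lowest p or nearest each start. Some list genes, markers and regions were named after their values were seen. Lists covered regulators, prenylation enzymes, other interferon-inducible GTPases, inflammasome genes, interferon gamma targets and 1p22 neighbours. With 3 libraries a group, genes under the filter, with its minimum of about 10 counts, gave no test. MeDIP regions under it have p-values from the fit without the filter, which rest on few counts per library. Some items of these lists and regions and 1 promoter motif that was searched are not reported here.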

Additional observations from a re-analysis of the deposited data

How the results depend on the processing

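Of 174 alternative values for log2 fold changes of GBP2, GBP4, GBP5 and the tested GBP2 region, 171 kept their direction. An adjusted p was read for 137 of them, of which 133 kept direction and side of the threshold. No side was read for the 30 values of GBP5 against untreated, which carry no test, nor for 7 others with no adjusted p. GBP4 for TALE passed without the filter (adjusted p 0.00650), and 3 values of TALE against dCas9 changed sign when 1 library was left out: GBP2 (-0.47 to 0.068, positive without TALE replicate 2), GBP5 (-0.35 to 0.11, positive without TALE replicate 1) and the region (-0.72 to 0.13, positive without dCas9 replicate 2). GBP5 against untreated lay between -1.70 and -1.24 for TALE and between -1.54 and -1.22 for dCas9.

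Counts of genes called were 3 for TALE against untreated (DESeq2 9, no filter 74, at least 10 counts in every library 1, leaving out a library 2 to 16) and 4 for dCas9 (29, 89, 2 and 2 to 10). For TALE against dCas9 they were 0, with 77 without the filter and 0 to 21 leaving out a library, at 880 genes with an unadjusted p under 0.05. For MeDIP, 0 regions were called for TALE (at least 10 counts 1, leaving out a library 0 to 2). For dCas9 1 was called (DESeq2 0, no filter 2, at least 10 counts 0, leaving out a library 0 to 3), and for TALE against dCas9 1 (DESeq2 0, no filter 0, leaving out a library 0 to 1). Causes were not tested. The replicate block gave 2 RNA calls and 0 MeDIP calls for dCas9 against untreated, and GBP4 had adjusted p 0.272 for TALE and 0.364 for dCas9 under it. Correlations between same-numbered libraries of different groups, with group means removed, ran from -0.284 to 0.103 for RNA. With 3 libraries a group they cannot decide whether the numbers pair the samples, and the labels name no shared culture or day.

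Peaks with −log10 q of at least 3 averaged 1.67 per library in untreated, 0.333 in TALE and 0.333 in dCas9 cells, against 5.67, 2.67 and 3.00. Levels per kb of the longest transcript were 0.806 for GBP2, 0.196 for GBP3 and 2.63 for GBP5. The MeDIP sum ran from 54.2% to 62.1% (TALE) and 62.3% to 75.2% (dCas9) of untreated leaving out a library, and was for TALE 71.3% without mostly repeated regions and 68.1% without regions with peaks in untreated libraries only, both chosen after seeing the data. Depth limits GBP1, GBP3 and most MeDIP regions, which had under 10 counts in many libraries.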
